A study of Mus musculus with 30 samples.

Results

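The comparison was between 2 sets of libraries from bone marrow-derived dendritic cells (BMDCs) labelled Cacnb3-/-, those whose names end in 24h and those whose names end in ctrl. It took 10 of the 30 libraries of the series, 1 of each set from 5 numbered cultures, p974s843, p974s851, p974s852, p974s853 and p974s865, and each 24h library was compared with the ctrl library of the same number. *Cacnb3* encodes the β3 subunit of voltage-gated calcium channels, and all 10 libraries carry the label for its deletion. BMDCs are cells grown from bone marrow with GM-CSF, here for 6 days. The pulse was 30 min of ATP at 500 µM, and the 24h libraries are those taken 24 hours later. The treatment field of the labels reads 30 min of ATP for ctrl and vehicle for the third set, named 0p5h, so that the library names and this field disagree on which of them was unstimulated. Sets are given by their library names, and the values in 0p5h are given where the choice of the reference set turned a direction. Whether a number stands for 1 mouse is not stated in the labels. The paper's methods give mice of both sexes and place the knockout on C57BL/6N and WT on C57BL/6J, so genotype and substrain cannot be told apart where WT is used below.

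Extracellular ATP is released by stressed and dying cells and is sensed by P2X channels and P2Y receptors on dendritic cells, which raise cytosolic calcium and can start maturation, migration and the secretion of cytokines. Type I interferons act on the receptor pair Ifnar1 and Ifnar2 and on JAK kinases, and transcription factors that include IRF9 then bind the interferon-stimulated response element (ISRE) in the promoters of antiviral genes. Dendritic cells raised in GM-CSF are a mixture that holds dendritic cell-like and macrophage-like cells, and they draw on glycolysis when activated.

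In Cacnb3-/- BMDCs, the gene list with the most rises at 24h was that of interferon-stimulated genes. Called genes of the IFIT, OAS and SLFN families and *Irf7*, *Isg15* and *Rsad2* were higher in the 24h library of every culture, by 2.3 times for *Oas1g* to 6.8 times for *Ifit3b*. *Ptgs2*, the inducible cyclooxygenase, and the cytokine genes *Il6* and *Il10* were also higher. Of 27 glycolysis genes 15 fell and of 24 genes of the response to low oxygen 7 fell, mostly by less than 2-fold, with some genes on both lists. The genes called lower had a median level of 3.11 CPM, against 22.8 CPM for all genes tested. CPM are counts per 1000000 after normalization for library size.

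Of 12452 genes tested by edgeR's quasi-likelihood test with the culture number as a block, 1063 passed a Benjamini-Hochberg adjusted p under 0.05, 540 higher (4.34% of genes tested) and 523 lower (4.2%). In what follows, rose and fell are used for genes past this threshold, and called for genes that also changed by at least 2-fold. There were 138 called genes (1.11%), 85 higher (0.683%) and 53 lower (0.426%). The direction was shared by all 5 cultures in 82 of the 85 and in 48 of the 53, against 14.4% and 14.6% of all genes tested. Every 24h library lay above every ctrl library for 29 of the 85, against 0.659% of all genes tested, and below for 8 of the 53, against 0.554%. The calls come from a test on these same 5 cultures, so both shares are raised by the selection and describe the calls only. The counts rest on the pairing by culture number. Without it edgeR called 0 genes and passed 0, with a smallest adjusted p of 0.139, while the p before adjustment was under 0.05 for 1343 genes (10.8%). DESeq2 without the pairing called 45. The number of calls also varied with the cultures in the fit. It was 45 without p974s851, 50 without p974s853 and 146 without p974s843. When the trend of each library with the GC content of genes was removed, 72 genes were called higher and 21 lower.

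**Figure D1:**
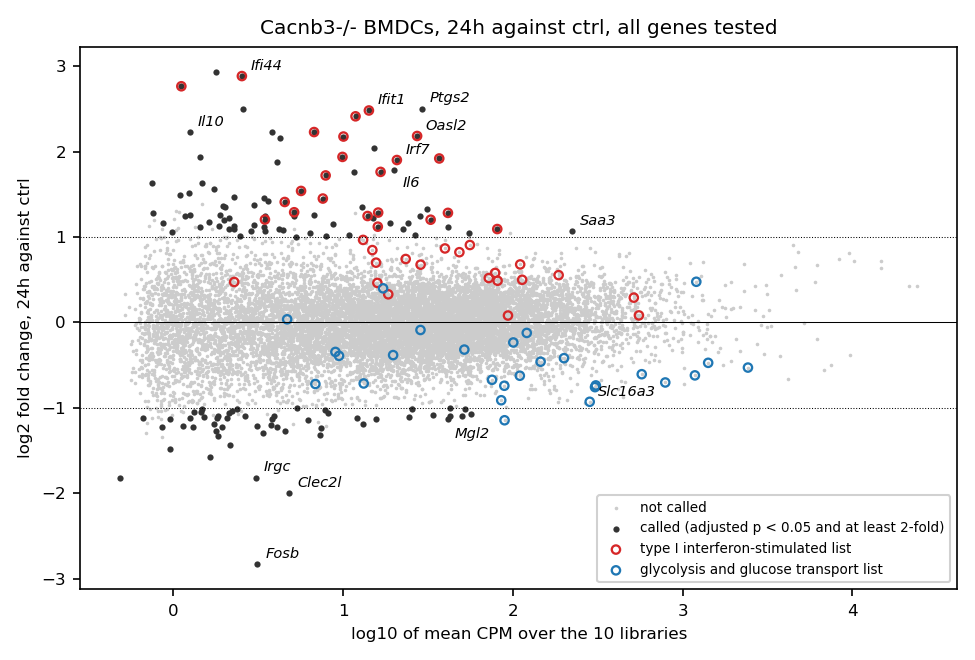
Each point is 1 of 12452 genes in Cacnb3-/- BMDCs, with its mean CPM over the 10 libraries (log10) on the x axis and its log2 fold change on the y axis. Dark points are the 85 genes called higher and the 53 called lower, and dotted lines mark 2-fold. Members of the interferon-stimulated list (red rings) lie mostly above 0, and those of the glycolysis list (blue rings) lie mostly between 0 and -1.

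The libraries differed in more than these genes. Totals ran from 12703988 to 22004225 counts in ctrl and from 8237393 to 22535554 at 24h. Reads were counted on *Cacnb3* in all 10 libraries, at 777 to 1317 CPM in ctrl and 573 to 1295 CPM at 24h (log2 fold change -0.11 ± 0.22, adjusted p = 0.758), against 1159 to 2143 CPM in the WT libraries of the same sets. A number after ± is a standard error for log2 fold changes and an SD for levels, and adjusted p-values are edgeR's with Benjamini-Hochberg adjustment. A count over the whole gene does not show whether the deleted exons were read. The share of reads on mitochondrially encoded genes was higher at 24h in 5 of 5 cultures, with a mean of 6.42% ± 3.20 in ctrl and 9.96% ± 5.43 at 24h (SD, n = 5), with the largest difference in p974s843, from 4.83% to 16.5%. The slope of log2 level on GC content was lower at 24h in 5 of 5 cultures, with a mean of -0.04 ± 0.24 in ctrl and -0.36 ± 0.24 at 24h on the log2 scale for 10 points of GC (SD, n = 5). Both gave p = 0.0625 in an exact sign-flip permutation test (two-sided), the smallest that 5 pairs allow, and an adjusted p of 0.156 over 5 library measures by Benjamini-Hochberg. The called falls had a median GC content of 57%, the called rises 45.7% and all genes tested 49.2%. Both libraries of a culture were on the same sequencing lane except in p974s852, and 127 genes were called without it.

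Dendritic cell and myeloid markers were well expressed, with a sum over 9 markers of 11742 to 24639 CPM in ctrl and 10298 to 19962 CPM at 24h, lower at 24h in 5 of 5 cultures. Most of this sum was *Cd74* and *H2-Ab1* (ctrl means of 11012 and 3417 CPM), which did not pass. Of the other markers in it, *Flt3* and *Zbtb46* rose, *Itgax* fell and the rest did not pass. The 8 macrophage markers summed to 804 to 2314 CPM in ctrl and 727 to 1688 CPM at 24h, also lower in 5 of 5, with *Csf1r* the only marker that fell. The 9 neutrophil markers summed to 207 to 440 CPM and 300.1 to 633 CPM, higher at 24h in 3 of 5. Markers of T cells, B cells and NK cells summed to at most 4.03 CPM for each type, mast cell or basophil markers to 7.92 to 35.8, megakaryocyte markers to 66.6 to 174 and stromal or endothelial markers to 5.44 to 13.9 CPM. The mast cell sum was mostly *Gata2* and the megakaryocyte sum mostly *Pf4*, with ctrl means of 19.5 and 105 CPM. Of 5 erythroid markers *Hbb-bs* had 0 reads in all 10 libraries. In bulk RNA, fewer cells of a type and less RNA per cell cannot be told apart.

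Interferon-stimulated genes encode the effectors and regulators of the antiviral state. Of 47 genes on a list of type I interferon-stimulated genes, 43 were tested, 37 rose, 0 fell and 23 were called higher. The list had a median log2 fold change of 1.12, against -0.01 over all genes tested. With the GC trend removed 35 rose, at a median of 0.97, and 38 had an unadjusted p under 0.05 without the pairing, where 0 passed after adjustment. Without p974s851 or p974s853, 13 and 15 members rose, at medians of 1.13 and 1.11. Without any 1 of the other cultures 35 to 38 rose, and the median was lowest, 0.88, without p974s843. From 0p5h to 24h, a comparison that shares the 24h libraries, 40 of 44 members rose and 0 fell.

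Among the effectors, *Ifit1* (ENSMUSG00000034459, GRCm38 chromosome 19, 34640871 to 34650009) encodes a protein that binds viral RNA lacking the host cap. It was read at 1.88, 5.54, 3.86, 4.62 and 2.45 CPM in the ctrl libraries of p974s843, p974s851, p974s852, p974s853 and p974s865, and at 58.1, 20.3, 13, 24.6 and 7.63 CPM in their 24h libraries. Its 24h values lay above all ctrl values, and p974s843 gave the highest (log2 fold change 2.48 ± 0.42, adjusted p = 0.0113). *Rsad2* encodes viperin, an enzyme that makes a chain-terminating nucleotide. Ctrl libraries held 7.91, 13.3, 15.7, 22.8 and 7.48 CPM, while 24h libraries held 136, 45.7, 34.1, 67.8 and 17.6 CPM. Each culture was higher at 24h, although p974s865 at 24h stayed below p974s853 in ctrl (log2 fold change 1.92 ± 0.37, adjusted p = 0.0165). *Isg15* encodes a ubiquitin-like protein that is joined to other proteins. Its levels were 6.16, 12.4, 5.19, 8.4 and 4.82 CPM in ctrl and 44.2, 22.3, 16.4, 32.4 and 14.1 CPM at 24h. The sets did not overlap (log2 fold change 1.76 ± 0.24, adjusted p = 0.00613).

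*Oasl2*, a member of the oligoadenylate synthetase family that responds to double-stranded RNA, was among the higher-expressed members. From 9.38, 15.3, 5.43, 8.21 and 8.16 CPM in ctrl, the cultures went to 92.2, 48.5, 28.5, 31.2 and 26.2 CPM at 24h. The lowest 24h library lay above the highest ctrl library (log2 fold change 2.18 ± 0.23, adjusted p = 0.00266). The largest changes on the list were those of *Ifi44* (log2 fold change 2.88 ± 0.40, adjusted p = 0.0065) and *Ifit3b* (2.76 ± 0.39), which reached at most 1.44 and 0.642 CPM in ctrl, so that the sizes rest on few reads. *Ifit2* (2.18 ± 0.31) and *Ifit3* (2.23 ± 0.35) rose as well. *Rtp4*, which encodes a chaperone of receptors with antiviral activity, rose from a mean of 3.49 ± 1.2 to 20.2 ± 11.3 CPM (SD, n = 5), with no overlap (log2 fold change 2.41 ± 0.26, adjusted p = 0.00266). Reads of near-identical paralogs in the IFIT, OAS, SLFN, IFI200 and LY6 families can be split or lost in counting, so values of single members are uncertain.

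Among the regulators, *Irf7*, the transcription factor that amplifies interferon production, had the largest change of those named. In the same order of cultures, ctrl libraries had 9.88, 15.3, 3.54, 7.19 and 8.41 CPM and 24h libraries 53.6, 36.4, 17.4, 32.2 and 23.6 CPM. All 24h values were above all ctrl values (log2 fold change 1.90 ± 0.19, adjusted p = 0.00266), and in the 0p5h libraries it stood at 23.6, 17.7, 2.68, 8.44 and 9.66 CPM. *Stat2* rose from a mean of 59.3 ± 7.6 to 85.1 ± 11.6 CPM (log2 fold change 0.52 ± 0.09, adjusted p = 0.014) and *Irf9* from 62.9 ± 6.16 to 94.6 ± 13.8 CPM (0.58 ± 0.10), both below 2-fold. Interferon genes themselves were hardly read. Over the 5 libraries of a set, *Ifnb1* had 1 read in ctrl and 8 at 24h, *Ifna2* 0 and 2, and *Ifng* 2 in each, and none was tested. These ligands were looked up after the interferon genes had been seen to rise.

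**Figure D2:**
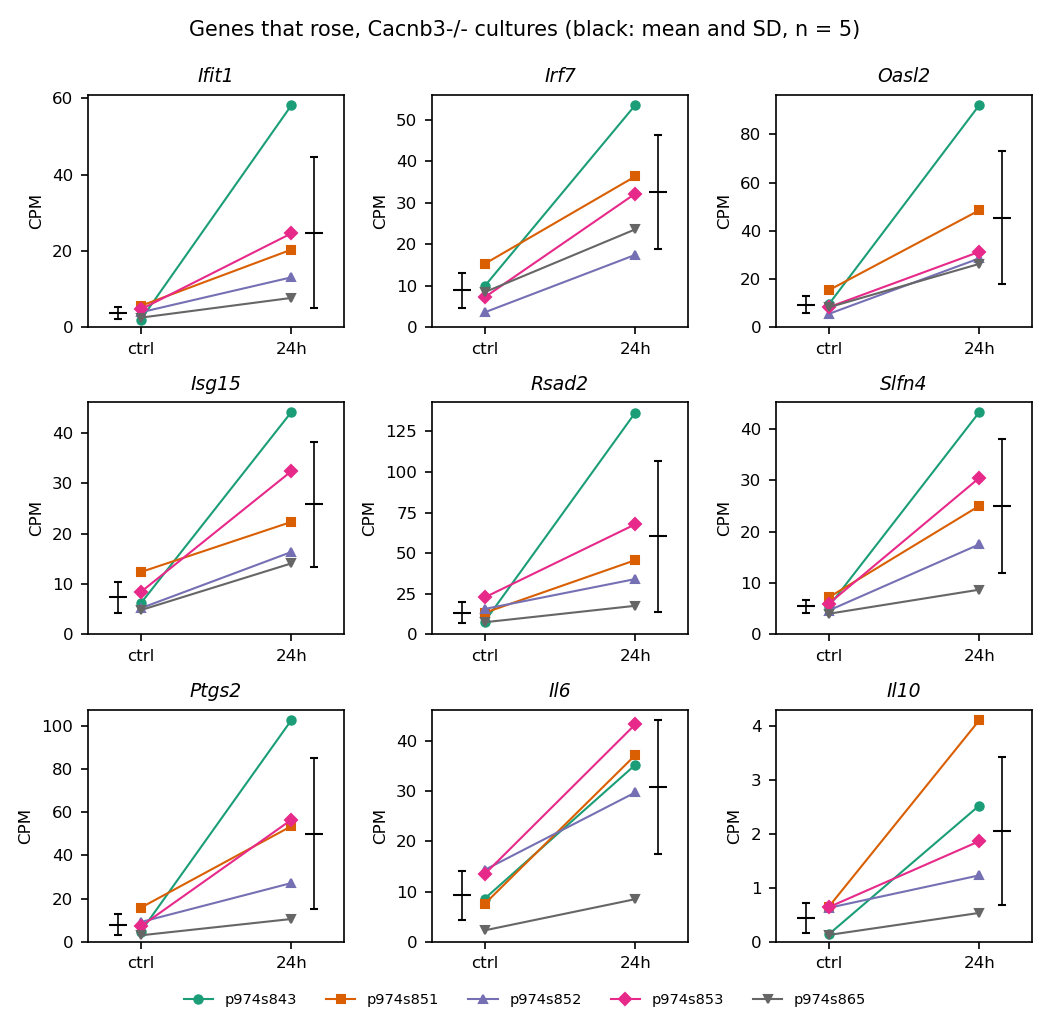
CPM on the y axis of 9 genes in the ctrl and 24h libraries (x axis) of 5 Cacnb3-/- cultures, 1 line per culture, with the mean and SD of each set in black. All lines rise, and p974s843 reaches the highest 24h value in 7 of the 9 panels, the exceptions being *Il6* and *Il10*.

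The promoters of these genes are shown because they can be read for the response element that defines this pathway. In windows of RefSeq on GRCm38.p6, from 250 bases before to 50 bases after each gene's start, the ISRE core, here GAAA, any 2 bases and GAAA again, was searched on both strands. It was found for 15 of the 27 interferon-list genes that rose and had a window (55.6%), and for 10 of 44 called rises outside the list (22.7%), against 3.99% of all 27025 genes with a window and 6.67% of the 30 called falls with one. The 10 outside the list include *Ifi206* and *Ifit1bl1*, which are interferon-responsive genes themselves, and *Mndal*, *Ifi203* and *Gbp2b* of such families. *Saa3*, an acute phase gene, is also among them. The 22.7% is therefore not a share among genes unrelated to interferon. The list was chosen as interferon-stimulated, so its own share is no independent result. The AP-1 site TGANTCA was found for 16 of 62 called rises (25.8%). Its share was 6.26% of genes tested, 8.97% of all genes and 6.67% of called falls. It was 33.3% of interferon-list genes that rose and 20.5% of called rises outside the list. The ISRE core was in 0 of 15 promoters of glycolysis genes that fell. A match is a string of letters and not a site shown to be bound. The 200 bases before the start follow 5′ to 3′ on the strand of the gene for 4 members and for *Ifi206*, a called rise outside the list, with ISRE cores in capitals, which read TTTC, 2 bases and TTTC where they lie on the other strand.
Ifit1 (chr19:34640689-34640888, forward): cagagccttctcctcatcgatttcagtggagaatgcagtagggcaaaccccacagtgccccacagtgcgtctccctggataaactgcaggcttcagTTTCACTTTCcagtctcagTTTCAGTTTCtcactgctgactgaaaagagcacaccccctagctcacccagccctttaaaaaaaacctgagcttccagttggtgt
Ifit3 (chr19:34583329-34583528, forward): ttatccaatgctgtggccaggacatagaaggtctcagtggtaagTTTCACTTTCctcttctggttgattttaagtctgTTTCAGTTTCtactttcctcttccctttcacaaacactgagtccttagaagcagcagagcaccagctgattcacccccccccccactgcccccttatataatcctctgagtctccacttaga
Isg15 (chr4:156200819-156201018, reverse): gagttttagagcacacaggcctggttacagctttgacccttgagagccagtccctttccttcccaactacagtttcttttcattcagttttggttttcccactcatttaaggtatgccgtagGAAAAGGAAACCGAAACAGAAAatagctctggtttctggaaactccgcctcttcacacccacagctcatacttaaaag
Rsad2 (chr12:26456453-26456652, reverse): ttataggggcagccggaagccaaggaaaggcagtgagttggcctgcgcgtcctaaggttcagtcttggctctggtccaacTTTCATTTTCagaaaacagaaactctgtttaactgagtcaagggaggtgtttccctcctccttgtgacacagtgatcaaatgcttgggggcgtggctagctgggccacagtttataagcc
Ifi206 (chr1:173491319-173491518, reverse): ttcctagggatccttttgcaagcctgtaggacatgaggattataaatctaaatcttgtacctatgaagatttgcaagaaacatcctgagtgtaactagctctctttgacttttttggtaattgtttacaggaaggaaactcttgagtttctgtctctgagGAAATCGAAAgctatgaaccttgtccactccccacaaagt
*Ifit1* holds 2 cores, which start 104 and 85 bases before the start, *Ifit3* holds 2 and *Isg15* holds 3 that overlap. *Rsad2* and *Ifi206* hold 1 each.

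Other interferon-responsive genes went the same way. *Ifi206*, of the DNA-sensing IFI200 family, had the largest called rise. The ctrl values were 0.414, 0.648, 0.236, 0.513 and 0.169 CPM, and the 24h values 6.78, 2.91, 2.02, 2.85 and 1.24 CPM. Its values were low throughout, and no 24h library overlapped ctrl (log2 fold change 2.94 ± 0.32, adjusted p = 0.00266). *Slfn4*, a schlafen gene of myeloid cells, rose with no overlap. Ctrl libraries held 5.42, 7.2, 4.64, 5.97 and 4.02 CPM, while 24h libraries held 43.2, 25, 17.5, 30.4 and 8.7 CPM. The change was smallest in p974s865 (log2 fold change 2.04 ± 0.24, adjusted p = 0.00319). *Ifit1bl1* (2.50 ± 0.36), *Ly6a* (2.16 ± 0.36), which encodes the surface protein Sca-1, and *Ms4a4c* (2.23 ± 0.52) followed. Of 18 interferon-gamma GTPase genes, which encode proteins that attack the vacuoles of intracellular microbes, 10 were tested and 7 rose with 0 falling, at a median of 0.76. Without p974s851 or p974s853, 0 of them rose, at medians of 0.71 and 0.73. Without any 1 of the other cultures 6 to 8 rose, and the median was lowest, 0.57, without p974s843. *Irgm1* rose from 18.4 ± 2.73 to 35.5 ± 9.2 CPM (log2 fold change 0.92 ± 0.15, adjusted p = 0.0103) and *Gbp2* from 99.3 ± 35.4 to 170.2 ± 41.7 CPM (0.82 ± 0.13). In antigen presentation by MHC class I, 3 of 22 genes tested rose and 0 fell. They were *Nlrc5*, the transactivator of class I genes (log2 fold change 0.87 ± 0.11, adjusted p = 0.00398), *B2m* (0.55 ± 0.12) and *Tapbpl* (0.51 ± 0.11), and the list's median was 0.07.

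Single genes for inflammatory mediators rose, in lists where most members did not pass. Of 18 chemokine genes tested 4 rose and 0 fell, and of 23 prostaglandin and leukotriene genes 1 rose and 2 fell. For 5 of the genes named here the direction depended on the reference set. *Ptgs2* (ENSMUSG00000032487, GRCm38 chromosome 1, 150100031 to 150108227) encodes the enzyme that commits arachidonic acid to prostaglandins. Its levels were 4.64, 15.8, 9.13, 7.12 and 3.0 CPM in ctrl and 103, 53.5, 27.2, 56.5 and 10.6 CPM at 24h. Only p974s865 at 24h fell within the ctrl range (log2 fold change 2.50 ± 0.38, adjusted p = 0.00884). In the 0p5h libraries, however, it stood at 226, 127, 115, 74.2 and 206 CPM, and against that set its log2 fold change was -1.73 (adjusted p = 0.0124). *Il6* encodes interleukin-6. From 8.59, 7.56, 14.3, 13.5 and 2.28 CPM in ctrl, the cultures went to 35.2, 37.2, 29.7, 43.3 and 8.5 CPM at 24h. It was higher at 24h in each culture, with p974s865 lowest in both sets (log2 fold change 1.78 ± 0.17, adjusted p = 0.00266), and with 0p5h as the reference the log2 fold change was -0.35 (adjusted p = 0.221). *Ccl4*, a chemokine for T cells and monocytes, did not overlap between the sets. In the same order of cultures, ctrl libraries had 5.29, 8.13, 4.01, 5.58 and 2.71 CPM and 24h libraries 33.1, 17.8, 13.3, 17.4 and 8.62 CPM. Its log2 fold change was 1.76 ± 0.21, adjusted p = 0.00319, and -0.37 against 0p5h (adjusted p = 0.294). *Cxcl10*, an interferon-induced chemokine on the interferon and chemokine lists, rose from 2.93 ± 1.93 to 7.37 ± 4.2 CPM (log2 fold change 1.29 ± 0.32, adjusted p = 0.0347). It did not pass in 4 of the 5 fits that left out a culture, and its log2 fold change was -0.14 against 0p5h (adjusted p = 0.79). *Cxcl1* (0.63 ± 0.14) and *Cxcl3* (0.75 ± 0.20), which attract neutrophils, were the other chemokines that rose. Against 0p5h *Cxcl1* had a log2 fold change of -0.24 (adjusted p = 0.312).

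*Il10*, which encodes an anti-inflammatory cytokine, was near the limit of detection in ctrl. The ctrl values were 0.138, 0.648, 0.63, 0.642 and 0.127 CPM, and the 24h values 2.53, 4.11, 1.23, 1.87 and 0.536 CPM. The 24h library was higher in all 5 cultures, and only p974s865 at 24h fell within the ctrl range (log2 fold change 2.22 ± 0.40, adjusted p = 0.0137). Of 32 cytokine and growth factor genes tested, 5 rose and 5 fell. The lymphatic growth factor gene *Vegfc* rose (1.52 ± 0.28), and *Vegfa* (-0.78 ± 0.13) and *Tgfb3* (-1.33 ± 0.28) fell. *Saa3*, an acute phase gene, rose from 153 ± 111 to 291 ± 185 CPM with wide spread between cultures (log2 fold change 1.07 ± 0.20, adjusted p = 0.0146). *Ch25h*, whose product makes 25-hydroxycholesterol, rose (1.88 ± 0.21), as did the adhesion molecule gene *Vcam1* (1.16 ± 0.14). *Klrc1*, a receptor gene of NK cells that was named by the rule on size, had 0.825 to 5.37 CPM at 24h (1.94 ± 0.38), while the 3 NK cell markers together reached at most 0.296 CPM.

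Genes of mature migratory dendritic cells rose in part. Of 35 tested, 9 rose and 0 fell, at a median of 0.19, and 11 rose with the GC trend removed. Without p974s851 or p974s853, 0 rose, at medians of 0.22 and 0.21. Without p974s843, p974s852 or p974s865, 14, 7 and 5 rose, at medians of 0.28, 0.22 and 0.12. From 0p5h to 24h, 11 rose and 3 fell. The largest were *Apol7c* (log2 fold change 0.81 ± 0.20, adjusted p = 0.0339), *Serpinb9*, a granzyme B inhibitor (0.71 ± 0.12), *Samsn1* (0.70 ± 0.12) and *Tmem123* (0.68 ± 0.12). The chemokine receptor *Ccr7*, which guides these cells to lymph nodes, was abundant and had a log2 fold change of -0.03 ± 0.17, adjusted p = 0.922. Ctrl libraries held 2964, 3225, 2603, 2782 and 2835 CPM, while 24h libraries held 1667, 3454, 2904, 2739 and 3869 CPM. It was higher at 24h in 3 cultures and lower in 2. Dendritic cell lineage genes were divided, with 4 rises and 3 falls among 23 tested. *Flt3*, the receptor for a dendritic cell growth factor, rose (0.80 ± 0.19) and so did the transcription factor gene *Zbtb46* (0.45 ± 0.11), while *Itgax*, which encodes CD11c, fell (-0.62 ± 0.11). Among the 24 cholesterol synthesis and uptake genes tested, 5 rose and 0 fell, with *Cyp51* (1.0 ± 0.19), *Hsd17b7* (0.75 ± 0.15) and *Hmgcs1* (0.66 ± 0.13) in the lead. Of 10 P2X and P2Y receptor genes tested, *P2ry10*, a receptor for lysophospholipids, rose (0.82 ± 0.12), and 0 of the 10 tested subunit genes of voltage-gated calcium channels passed.

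**Figure D3:**
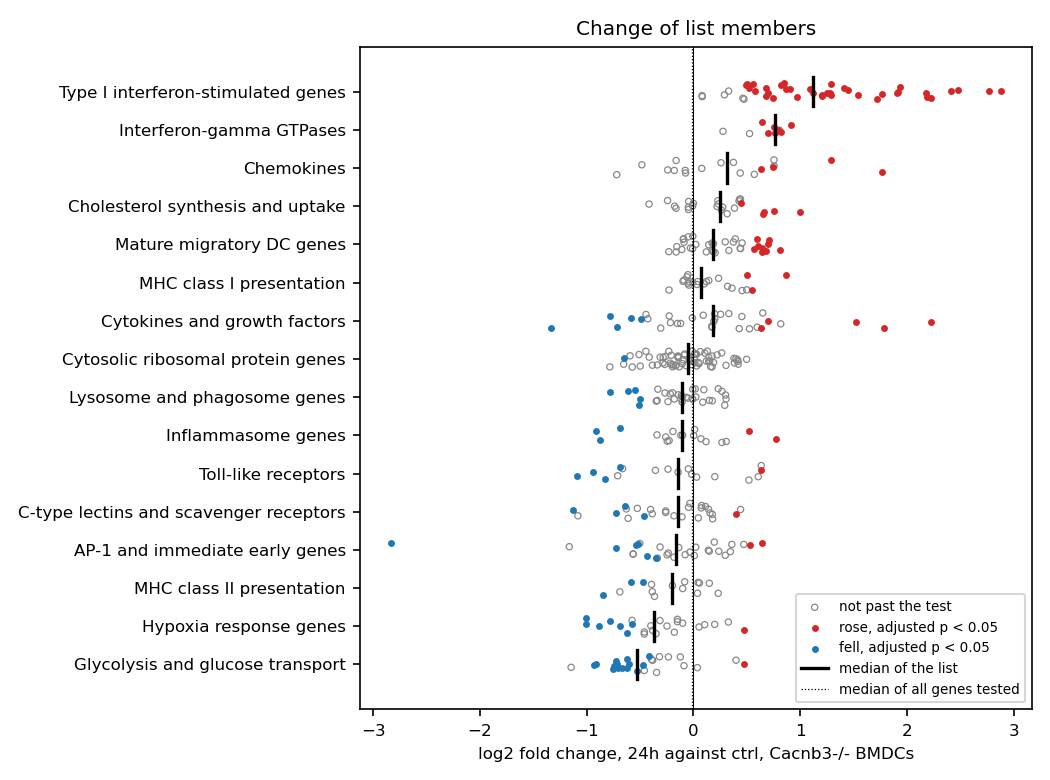
Log2 fold changes from ctrl to 24h (x axis) of the tested members of 16 gene lists in Cacnb3-/- BMDCs, with members that rose in red, members that fell in blue and the others open. Black bars are list medians, from 1.12 for interferon-stimulated genes to -0.53 for glycolysis, and the dotted line is the median of all genes tested at -0.01.

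The falls were led by glycolysis and glucose transport. Of 27 genes tested, 15 fell and 1 rose, none by 2-fold, at a median log2 fold change of -0.53. *Slc16a3* (ENSMUSG00000025161, GRCm38 chromosome 11, 120948480 to 120960868) encodes the lactate exporter MCT4. Its levels were 432, 399, 168, 273 and 595 CPM in ctrl and 228, 220.2, 86, 156 and 281 CPM at 24h. All 5 cultures were lower at 24h, while cultures overlapped between the sets (log2 fold change -0.93 ± 0.09, adjusted p = 0.00266). *Pfkl*, the liver form of phosphofructokinase, was also lower in every culture. From 470.4, 381, 227, 340.4 and 489.6 CPM in ctrl, the cultures went to 254, 232, 116, 243 and 297 CPM at 24h. The log2 fold change was -0.76 ± 0.10, adjusted p = 0.0061. Hexokinase genes *Hk2* (-0.91 ± 0.20) and *Hk1* (-0.74 ± 0.12) fell too, *Hk2* hardly in p974s843, from 148 to 136 CPM. *Pfkfb3*, whose product makes an activator of phosphofructokinase, was the member that rose (0.48 ± 0.12). With the GC trend removed, 9 members fell and 2 rose, at a median of -0.44. Without p974s851, p974s852 or p974s853, 4, 6 and 5 members fell, and 17 and 10 without p974s843 or p974s865. The list medians of these fits ran from -0.46 to -0.59. From 0p5h to 24h, 18 of the 27 fell and 0 rose.

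Genes of the hypoxia response followed, with 7 falls and 1 rise among 24 tested and a median of -0.37, and 3 members fell with the GC trend removed. Without p974s851 or p974s853 1 member fell, without p974s852 or p974s865 2, and without p974s843 12. The list medians of these fits ran from -0.21 to -0.55. The list shares *Slc2a1*, *Pdk1*, *Pfkfb3* and *Pfkfb4* with the glycolysis list, and *Pfkfb3* was the rise in both. *Vegfa*, the main growth factor for blood vessels, was lower in every culture. In the same order of cultures, ctrl libraries had 963, 343, 335, 492 and 528 CPM and 24h libraries 428, 214, 246, 356 and 241 CPM. The sets overlapped (log2 fold change -0.78 ± 0.13, adjusted p = 0.0115). *Selenbp1*, a methanethiol oxidase gene, fell from 57.6 ± 38.8 to 27.4 ± 15.5 CPM (log2 fold change -1.0 ± 0.14, adjusted p = 0.0061), and *Hilpda*, a lipid droplet gene, had a log2 fold change of -1.01 ± 0.24, adjusted p = 0.0341. *Hilpda* was lower in 4 cultures and went from 88.8 to 103 CPM in p974s843. The oxygen sensor gene *Egln3* (-0.89 ± 0.22) fell as well.

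**Figure D4:**
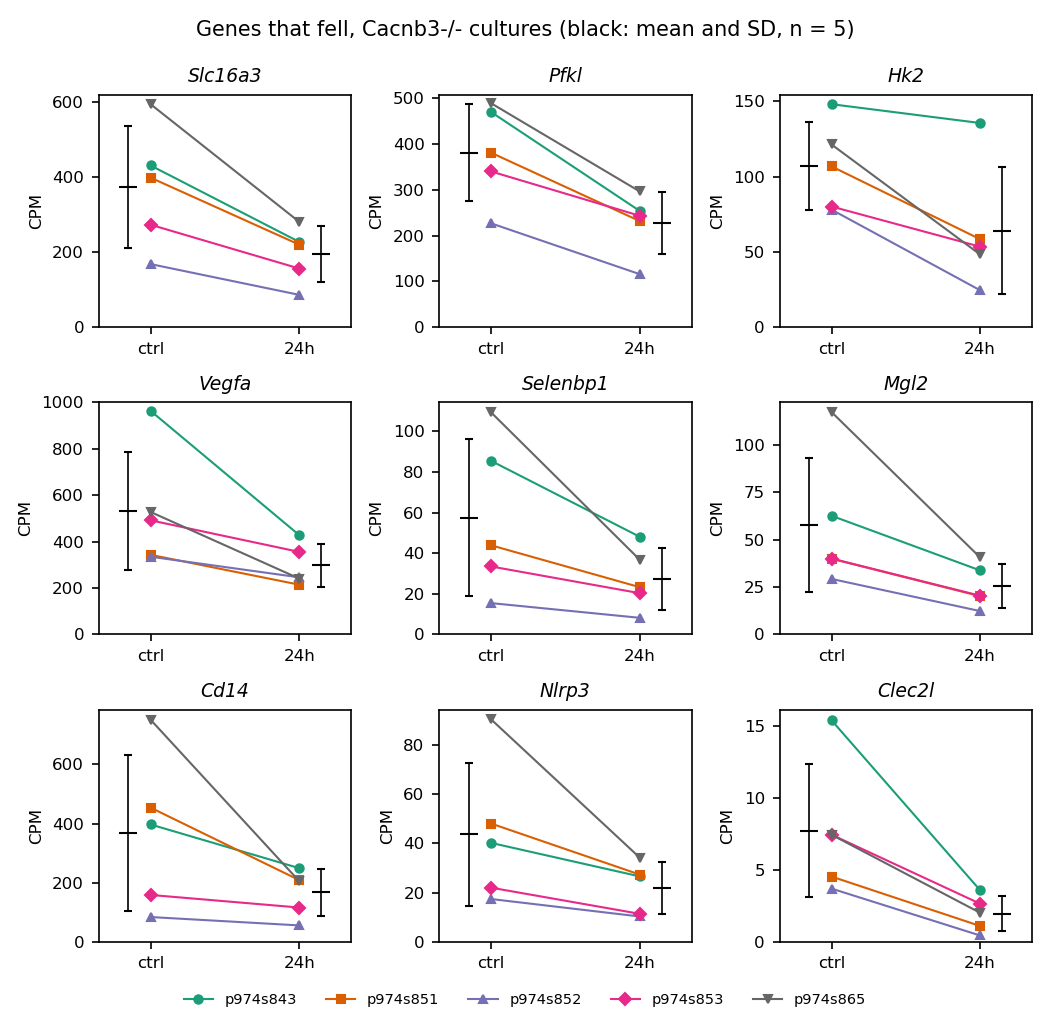
CPM on the y axis of 9 genes in the ctrl and 24h libraries (x axis) of 5 Cacnb3-/- cultures, 1 line per culture, with the mean and SD of each set in black. Every line falls, with p974s865 highest and p974s852 lowest in ctrl for *Slc16a3*, *Pfkl*, *Selenbp1*, *Mgl2*, *Cd14* and *Nlrp3*.

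Of 17 Toll-like receptor pathway genes tested, 4 fell, 1, *Ly96* (0.63 ± 0.15), rose and the other 12 did not pass, at a median of -0.14. *Cd14*, the co-receptor for lipopolysaccharide, spanned a wide range between cultures. The ctrl values were 397, 454, 83.8, 159 and 751 CPM, and the 24h values 249, 209, 55.5, 116 and 205 CPM. It was lower at 24h in all 5 (log2 fold change -0.94 ± 0.19, adjusted p = 0.0181), and it stood at 1167, 1070, 232, 418 and 2064 CPM in 0p5h. *Tlr5*, the flagellin receptor (-1.09 ± 0.24), *Tlr2* (-0.83 ± 0.18) and the adaptor gene *Ticam2* (-0.69 ± 0.16) fell with it. Among 26 C-type lectin and scavenger receptor genes tested, 4 fell, 1 rose and 21 did not pass, at a median of -0.15, and the galactose-binding lectin gene *Mgl2* was called. Ctrl libraries held 62.6, 39.9, 29.3, 40 and 117 CPM, while 24h libraries held 33.8, 20.2, 12.3, 20.4 and 40.7 CPM. It was lower in every culture, and the sets overlapped (log2 fold change -1.13 ± 0.12, adjusted p = 0.00266). *Clec10a* (-0.65 ± 0.16) and *Scarb1* (-0.73 ± 0.13) fell by less.

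Of 18 inflammasome genes tested, 3 fell and 2 rose. The sensor gene *Nlrp3* was lower in each culture. Its levels were 40.2, 48.1, 17.4, 22 and 90.4 CPM in ctrl and 26.6, 27.4, 10.3, 11.4 and 34.3 CPM at 24h. Its log2 fold change was -0.92 ± 0.13, adjusted p = 0.00765. *Txnip* (-0.88 ± 0.16) and *Ninj1*, which encodes a protein of membrane rupture (-0.69 ± 0.15), fell, while the caspase genes *Casp4* (0.77 ± 0.10) and *Casp1* (0.52 ± 0.10) rose. *Alox5*, the leukotriene-forming lipoxygenase, fell (-0.95 ± 0.20) where *Ptgs2* rose. Of 27 macrophage genes tested, 4 fell and 2 rose, with *Csf1r*, the M-CSF receptor (-0.69 ± 0.12), and the lysozyme gene *Lyz2* (-0.67 ± 0.11) among the falls. *Csf1r* is also 1 of the 8 macrophage markers summed above, and the only one of them that passed, from a mean of 581 ± 445 to 333 ± 223 CPM. Of the other 7, *Adgre1* (0.08) and *Mrc1* (0.44) had log2 fold changes above 0 and 5 below. The part of cell composition in these changes was not tested.

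In MHC class II presentation, 3 of 15 genes tested fell and 0 rose. They were *Ciita*, the class II transactivator (-0.85 ± 0.22), *H2-DMa* (-0.59 ± 0.09) and *H2-Oa* (-0.47 ± 0.11), and with the GC trend removed 0 of the 15 passed. Of 34 lysosome and phagosome genes tested, 5 fell and 0 rose, including the master regulator gene *Tfeb* (-0.78 ± 0.18) and *Ctsa* (-0.61 ± 0.09), and 2 members fell with the GC trend removed. The ferritin genes *Fth1* (-0.55 ± 0.13) and *Ftl1* (-0.55 ± 0.12) fell, 2 of 3 falls among 26 oxidative stress genes tested. Of 30 AP-1 and immediate early genes, 6 fell and 2 rose, and 2 fell and 4 rose with the GC trend removed. *Fosb*, an AP-1 subunit, had the largest called fall. From 0.781, 4.46, 6.61, 7.7 and 7.53 CPM in ctrl, the cultures went to 1.6, 0.451, 0.616, 0.786 and 0.536 CPM at 24h. It was lower at 24h in 4 cultures and higher in p974s843 (log2 fold change -2.83 ± 0.54, adjusted p = 0.0156), and in 0p5h it stood at 223, 232, 83.9, 98.5 and 352 CPM. *Klf4* (-0.72 ± 0.19) and *Jund* (-0.53 ± 0.12) fell below 2-fold.

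The other large falls had few reads. *Clec2l*, a C-type lectin-like gene, was led by p974s843 in both sets. In the same order of cultures, ctrl libraries had 15.4, 4.53, 3.7, 7.44 and 7.44 CPM and 24h libraries 3.59, 1.1, 0.44, 2.65 and 2.02 CPM. The sets did not overlap (log2 fold change -2.0 ± 0.20, adjusted p = 0.00266, and -1.56 with the GC trend removed). *Irgc*, a relative of the interferon-inducible GTPases, was highest in p974s865 in both sets. The ctrl values were 4.78, 3.74, 2.68, 3.02 and 9.6 CPM, and the 24h values 1.33, 1.15, 0.88, 0.687 and 2.64 CPM. No library overlapped (log2 fold change -1.82 ± 0.19, adjusted p = 0.00266, and -1.49 with the GC trend removed). Further large falls were those of *Tgfb3*, *Tmem119* (-1.31 ± 0.16), *Bcar1* (-1.30 ± 0.23), *Prob1* (-1.27 ± 0.20), *Dclk3* (-1.27 ± 0.28), *Sh2b2* (-1.24 ± 0.20), *Peli3* (-1.23 ± 0.34), *Ptprv* (-1.23 ± 0.29), *Slc4a11* (-1.23 ± 0.19), *Muc2* (-1.22 ± 0.22), *Rcor2* (-1.20 ± 0.19) and *Gnas* (-1.19 ± 0.30). Their ctrl means were between 1.83 and 18.4 CPM. Of the 53 called falls, 18 were called with the GC trend removed, and of the 85 called rises 57. *Gnas* overlaps transcripts of both strands, which the counting did not separate.

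In the lists that follow, most members did not pass. Of 68 cytosolic ribosomal protein genes tested, 1 fell and 0 rose, and of 48 nuclear-encoded respiratory chain genes 1 rose. Of 8 mitochondrially encoded genes 0 passed, although their median was 0.68 and 7 were higher at 24h in all 5 cultures. In the cell cycle, 2 of 34 S phase genes and 1 of 36 G2 and M phase genes rose. Of 14 genes for receptors of the IL-1 family, their signalling proteins and a binding protein, 0 passed. Actin and motility genes gave 4 rises and 3 falls of 51, integrins and adhesion genes 4 and 2 of 29, NF-kB genes 2 and 1 of 18, and p53 and apoptosis genes 1 and 1 of 25. Matrix proteases gave 1 rise and 4 falls of 29, the integrated stress response 1 and 3 of 24, cholesterol efflux and lipid handling 1 and 3 of 26, and costimulatory and checkpoint genes 3 and 2 of 25. These shares stand beside 4.34% and 4.2% of all genes tested.

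WT cultures were compared in the same way to see where the change differed. In WT, 797 of 13176 genes passed (6.05%; 3.64% lower and 2.41% higher) and 122 were called (0.926%), 52 higher (0.395%) and 70 lower (0.531%), and 2 without the pairing. There were 22 genes called in both genotypes, 15.9% of the Cacnb3-/- calls and 18% of the WT calls, and all 22 changed in the same direction. *Clec2l* (log2 fold change -2.03 in WT), *Irgc* (-1.27), *Ch25h* (2.06) and *Vegfc* (1.72) were among them. Of the 137 Cacnb3-/- calls tested in WT, 115 had the same sign there. The share with the same sign over all genes tested was not taken, so the 115 are a count without a background. The median log2 fold change of the 85 called rises was 1.28 in Cacnb3-/- and 0.37 in WT, and that of the 53 called falls -1.13 and -0.65. Since these genes were chosen in Cacnb3-/- BMDCs, the smaller sizes in WT are a description only.

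The interferon list had a median of 0.21 in WT, where 3 of its members rose and 0 fell. An interaction test, of whether the ctrl to 24h change depended on genotype, passed for 16 of 13536 genes (0.118%). All 16 had the more positive change in Cacnb3-/- BMDCs. Among them were 6 of the 43 interferon-list genes tested in Cacnb3-/- BMDCs, and *Ifi205*, a list member not tested there. The count of 16 became 6 without Cacnb3-/- p974s853 or WT p974s855, 8 without Cacnb3-/- p974s852 and 44 without Cacnb3-/- p974s865. Without the pairing 0 passed, with 658 at an unadjusted p under 0.05. *Irf7* had 133, 34.1, 352, 108 and 5.96 CPM in WT ctrl and 219, 29.5, 229.6, 159 and 6.62 CPM in WT 24h libraries, in the order p974s846, p974s850, p974s855, p974s856 and p974s864. Only p974s864 was in the range of the Cacnb3-/- ctrl libraries, and the change was larger in Cacnb3-/- by 1.77 ± 0.28 (log2, interaction adjusted p = 0.0149). *Oasl2* had 5.51 to 133 CPM in WT ctrl and 8.08 to 159.9 CPM at 24h, and differed by 1.93 ± 0.31 (log2, interaction adjusted p = 0.0149). *Il6* had 4.04 to 66 and 6.62 to 48.2 CPM in WT and differed by 1.97 ± 0.33 (log2, interaction adjusted p = 0.0208), and *Slfn4* by 2.45 ± 0.29 (log2, interaction adjusted p = 0.00296). The Cacnb3-/- 24h libraries held *Irf7* at 17.4 to 53.6 CPM and *Oasl2* at 26.2 to 92.2 CPM, within the range of WT ctrl.

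For *Btla*, an inhibitory receptor gene, the genotypes moved in opposite directions. Ctrl libraries held 0.919, 2.3, 0.787, 1.67 and 0.592 CPM, while 24h libraries held 1.73, 4.31, 1.32, 3.14 and 0.99 CPM. In WT it ranged over 0.758 to 19.1 CPM in ctrl and 0.329 to 8.77 CPM at 24h and fell (log2 fold change -1.27), while in Cacnb3-/- BMDCs it rose (log2 fold change 0.85 ± 0.21, adjusted p = 0.0347), and the difference was 2.13 ± 0.22 (log2, interaction adjusted p = 0.00101). *Plac8*, *Ly6i* and *Orm1* also rose in Cacnb3-/- BMDCs and fell in WT. Their differences were 1.82 ± 0.27 (log2, interaction adjusted p = 0.0125), 2.12 ± 0.37 (log2, interaction adjusted p = 0.0369) and 1.38 ± 0.21 (log2, interaction adjusted p = 0.0148). For glycolysis, the list median was -0.37 in WT, with 6 falls and 1 rise, and 0 members differed between genotypes at an adjusted p under 0.05.

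**Figure D5:**
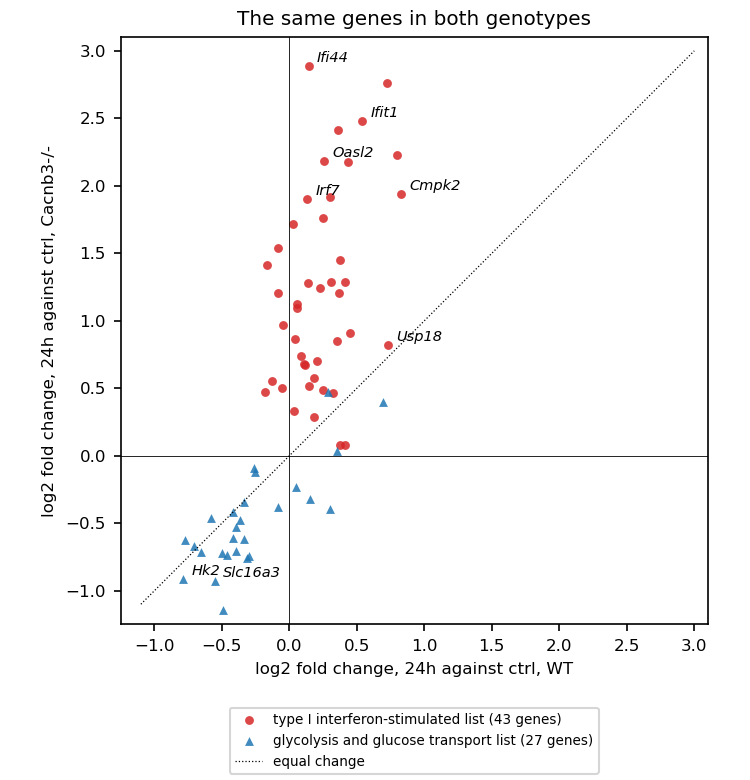
Log2 fold change from ctrl to 24h in WT (x axis) and in Cacnb3-/- BMDCs (y axis) for the tested members of the interferon-stimulated (red circles) and glycolysis (blue triangles) lists, with a dotted line where both are equal. Interferon-stimulated genes lie mostly above the line, near 0 in WT and up to 2.88 in Cacnb3-/-, and glycolysis genes lie near it.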

How the data were processed

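RNA-seq was made from BMDCs of 30 libraries, of which the 10 Cacnb3-/- ctrl and 24h libraries were compared here and the WT libraries only for contrast. The authors deposited raw gene counts from featureCounts 1.5.1 on Ensembl release 79 (GRCm38), after alignment with STAR 2.4 per the labels. Strand was not used in counting, so antisense and overlapping genes cannot be told apart. The paper's methods name a different build and sequencer than the labels. Gene symbols matched 89.4% of 43629 identifiers, and all columns were used as labelled.

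Counts were tested in edgeR 4.0.16 (R 4.3.3) by the quasi-likelihood test after TMM normalization and filterByExpr, with the culture number as a block and Benjamini-Hochberg adjustment. Adjusted p-values in the text are from this fit unless another is named. Called means an adjusted p under 0.05 and at least 2-fold. Totals of 8237393 to 22535554 counts set the precision, and p-values measure the spread between these cultures. The labels do not state that a number pairs libraries. Deviations from set means correlated within a number at 0.0729 (p974s843) to 0.741, with 4 of 5 numbers over 0.1 and a median of -0.18 between numbers. The pairing is therefore not established by the data, and counts without it stand beside the main ones. The named genes are the 15 largest called rises and falls that moved alike in all 5 cultures at a mean of at least 1 CPM, leaving out predicted genes (Gm numbers, Rik clones and pseudogenes), *Cacnb3*, and list members that passed, at most 4 per list by size plus defining members. Of these, 2 genes are not reported here. The interferon genes themselves and some further members were added after their values were seen. The gene lists and the comparison were chosen with earlier results of these data known. Alternatives were DESeq2 1.42.0, limma-voom (limma 3.58.1), other size factors, no filter, removal of a GC trend (spline with 6 degrees of freedom), each culture left out, all 30 libraries, and 0p5h as reference. Code was tested on simulated data.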

Additional observations from a re-analysis of the deposited data

Results flagged for a closer look

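For 12 of 109 changes tested, 1 culture stood apart from the other 4, with its gap to the nearest of them divided by the range above 0.71. Chance alone gives such a gap in about 1 in 20 groups. Culture p974s843 stood apart for *Ifi206* (0.752), *Ifit1* (0.737), *Ifit3* (0.865), *Rsad2* (0.78), *Gnas* (0.817), *Scarb1* (0.717), *Ciita* (0.716) and *Fosb* (0.845), and for the share of mitochondrial reads (0.769) and of the 50 most abundant genes (0.74). Culture p974s853 stood apart for *Dclk3* (0.762) and p974s865 for *Selenbp1* (0.773). The part of the mitochondrial share in these gene changes was not tested.

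The change from ctrl to 24h differed between genotypes for 16 genes by edgeR's interaction test with Benjamini-Hochberg adjustment, each with the more positive change in Cacnb3-/- BMDCs. On the log2 scale the difference was 2.97 for *Ifi206*, 2.77 for *Ifi44*, 2.68 for *Ifi205*, 2.45 for *Slfn4*, 2.13 for *Btla*, 2.12 for *Ly6i*, 2.05 for *Rtp4* and 1.97 for *Il6*. It was 1.93 for *Oasl2*, 1.82 for *Plac8*, 1.77 for *Irf7*, 1.70 for *Oas2*, 1.64 for *Cxcr5*, 1.63 for *Slfn1*, 1.46 for *Pgf* and 1.38 for *Orm1*. *Pgf* did not pass in Cacnb3-/- BMDCs (log2 fold change 0.19, edgeR adjusted p = 0.413) and fell in WT (-1.26, edgeR adjusted p = 0.00416). Each of these genes had a lower mean in Cacnb3-/- ctrl than in WT ctrl, such as *Slfn4* with 5.45 against 24.3 CPM and *Pgf* with 9.77 against 27.4 CPM. Genotype and substrain cannot be told apart here.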

How the results depend on the processing

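For Cacnb3-/- 24h against ctrl, 138 genes were called with the replicate block. The count was 0 with no replicate block and 0 with the GC trend also removed, 45 by DESeq2 without the block, 1063 with no fold minimum, 233 with no filter on low counts, 286 with all 30 libraries in one fit and 367 with 0p5h in place of ctrl. Leaving out 1 culture gave 45 to 146, the lowest without p974s851 (45) and p974s853 (50). DESeq2, its size factors, limma-voom and leaving out mitochondrial genes gave 140 to 142 genes, and removing the GC trend gave 93, with 72 higher and 21 lower in place of 85 and 53. In WT, 122 genes became 2 with no replicate block, 797 with no fold minimum, 207 with no filter and 69 to 149 on leaving out 1 culture, the lowest without p974s846. The genotype difference, 16 genes, became 0 with no replicate block, 52 by DESeq2, 129 with no filter and 6 to 44 on leaving out 1 culture. With 0p5h in place of ctrl, the log2 fold change turned to -1.73 for *Ptgs2*, -0.35 for *Il6*, -0.37 for *Ccl4*, -0.24 for *Cxcl1* and -0.14 for *Cxcl10*. The causes were not tested. Of 102 named genes that passed, 77 passed with the GC trend removed, 0 without the block, 30 without p974s851 and 29 without p974s853. The calls therefore depend on the pairing by culture number, which the labels do not state. Same-numbered libraries correlated over 0.1 for 4 of 5 numbers, and for 4 of 5 the correlation was highest with the own number. Low counts limit the sizes for genes near 1 CPM.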
